A study of Mus musculus with 8 samples.

Results

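The genes examined were 47 receptor genes for vasoactive and lipid mediators, chosen by gene symbol from the deposited count table. They comprised 14 genes for receptors of peptides, 9 for receptors of amines, 7 for receptors of prostanoids, 7 for receptors of adenosine and nucleotides, 8 for receptors of lysophospholipids, and 2 for receptors activated by proteases. All 47 symbols were among the 18533 symbols of the files, and 37 of them passed the filter on low counts and were tested. The cells were MASMCs, smooth muscle cells cultured from the aortas of young male mice, as 4 samples from WT mice and 4 samples from Hint1-/- mice. Both groups were exposed to PDGF-BB, a growth factor that acts on smooth muscle, at 20 ng/mL for 24 hours, and no sample without PDGF-BB was analysed here. The sources used here do not say whether the samples of a genotype came from separate mice or cultures, so the p-values measure only the spread between these samples, which may be technical. The labels name no Cre or promoter that would restrict the Hint1-/- genotype to smooth muscle, and Hint1 transcripts were still counted in these samples.

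Nearly all of these receptors are G protein–coupled receptors, which cross the membrane several times and pass a signal to a heterotrimeric G protein when their ligand binds. In vascular smooth muscle, receptors that couple to Gq raise calcium in the cell and drive contraction, those that couple to Gs raise cyclic AMP and relax the cell, and those that couple to Gi lower cyclic AMP. Several lysophospholipid receptors also act through G proteins that activate RhoA, a switch of the actin cytoskeleton. Npr3 is the exception in the list, since it is the clearance receptor for natriuretic peptides and not a G protein–coupled receptor, and F2rl2 is known mainly as a partner of other protease-activated receptors.

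Each RNA-Seq library held 20778077 to 20888041 estimated counts. Hint1, the targeted gene, had 2272 to 2364 counts in WT and 713 to 778 in Hint1-/- MASMCs, a log2 fold change of −1.64 ± 0.037 (SE, n = 4 per genotype), and so retained 32.1% of its WT level. Summed CPM, that is, counts per 1000000 of the scaled library size, of 10 smooth muscle markers ranged from 1396 to 1514 in WT and from 1150 to 1241 in Hint1-/- MASMCs, and 7 of the 10 were lower and 1 was higher at an adjusted p under 0.05. Over all tested genes, 11.2% were higher and 10.2% lower at that adjusted p. Several of the lists for other cell types also differed between genotypes. The sum of 10 macrophage markers was 2488 to 2855 CPM in WT and 2051 to 2193 CPM in Hint1-/- samples, with 7 of 9 tested markers lower, and that of 10 Schwann cell and glial markers was 68.4 to 74.2 CPM and 27.8 to 30.8 CPM, with 7 of 9 lower. The sum of 9 adventitial fibroblast markers was 3089 to 3226 CPM in WT and 3908 to 4111 CPM in Hint1-/- samples, with 3 higher and 2 lower, and that of 7 pericyte markers was 121 to 140 CPM and 86.3 to 92.4 CPM, with 4 of 6 lower. Of 10 cardiac muscle markers, whose sum was 1.82 to 2.64 CPM in WT and 5.64 to 9.38 CPM in Hint1-/- samples, 3 of 4 tested were higher. Of 6 mesothelial markers, at 5.88 to 6.71 CPM and 7.45 to 10.8 CPM, 1 of 2 tested was higher. The 10 endothelial markers summed to 6.86 to 9.66 CPM and 7.02 to 9.13 CPM, and the 6 adipocyte markers to 53.0 to 59.3 CPM and 54.9 to 62.1 CPM, and in edgeR none of their 6 and 2 tested genes passed the adjusted p, with 2 and 1 under 0.05 unadjusted and 0 past it in DESeq2 or limma-voom. No marker in these lists was at 0 in every sample. In these bulk samples fewer cells of a type and less RNA per cell cannot be told apart, and the part of other cell types in the values below was not tested.

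To find which receptor transcripts these bulk samples held, levels were first compared per kilobase of exon. Lengths were the union of all exons of a gene in the GENCODE M21 annotation of the GRCm38 build. The transcripts present may be shorter, an uncertainty that the spread between samples does not show. In CPM without lengths, Adora2b (48.8 in WT) stood below genes such as Lpar1 (100) and S1pr2 (83.3). Which cell type held these transcripts was not tested. The low-affinity adenosine receptor gene Adora2b stood highest, with 26.4 ± 1.05 CPM per kilobase in WT and 28.0 ± 0.971 in Hint1-/- MASMCs (SD, n = 4). Its counts were 1031, 975, 1007, and 1065 in WT replicates 1, 2, 3, and 4 and 1076, 1082, 1112, and 1022 in Hint1-/- replicates 1, 2, 3, and 4. Lpar1, a receptor of lysophosphatidic acid, followed with 23.4 ± 0.553 and 24.9 ± 0.631 CPM per kilobase, and its samples lay below those of Adora2b and above those of every other listed receptor in both genotypes. By mean CPM per kilobase, the third and the fourth place changed with genotype. Ptgir, the prostacyclin receptor gene, stood at 18.5 ± 0.644 CPM per kilobase in WT, above S1pr3, a sphingosine-1-phosphate receptor gene, at 15.0 ± 0.970, with no overlap between their samples. In Hint1-/- MASMCs their order was the other way round, with S1pr3 at 17.1 ± 0.413 and Ptgir at 16.4 ± 0.587, and their samples overlapped. This change of order depends on the exon lengths used. In CPM without lengths, mean S1pr3 stood above mean Ptgir in WT (66.8 and 61.8, with overlapping samples) and in Hint1-/- MASMCs (76.1 and 54.7).

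Below these, the bradykinin receptor gene Bdkrb1 (14.1 ± 0.645 CPM per kilobase in WT and 13.9 ± 1.13 in Hint1-/- MASMCs) and the nucleotide receptor gene P2ry6 (14.4 ± 0.558 and 13.3 ± 0.467) were not separated by their samples. In WT the samples of both also overlapped those of S1pr3. Calcrl, which binds adrenomedullin or calcitonin gene–related peptide together with a RAMP protein, came next at 11.6 ± 0.271 and 11.7 ± 0.830, followed by S1pr2 at 10.5 ± 0.400 and 10.7 ± 0.0849. Htr2a, a serotonin receptor gene, and S1pr1 overlapped in both genotypes, with means of 8.55 and 8.81 CPM per kilobase in WT and 10.2 and 9.82 in Hint1-/- MASMCs. Tbxa2r, Adra1d, and Avpr1a, the genes of receptors for thromboxane, noradrenaline, and vasopressin, had WT means of 7.53, 6.21, and 6.30. These 13 genes were the only listed receptors above 5 CPM per kilobase in the mean of both genotypes. The 2 genes of the angiotensin type 1 receptor were far lower, at 0.618 ± 0.156 in WT for Agtr1b and 0.124 ± 0.0510 for Agtr1a, and Ednrb, a receptor gene for endothelin, stood at 0.151 ± 0.0212 against 1.65 ± 0.0884 for Ednra.

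**Figure D1:**
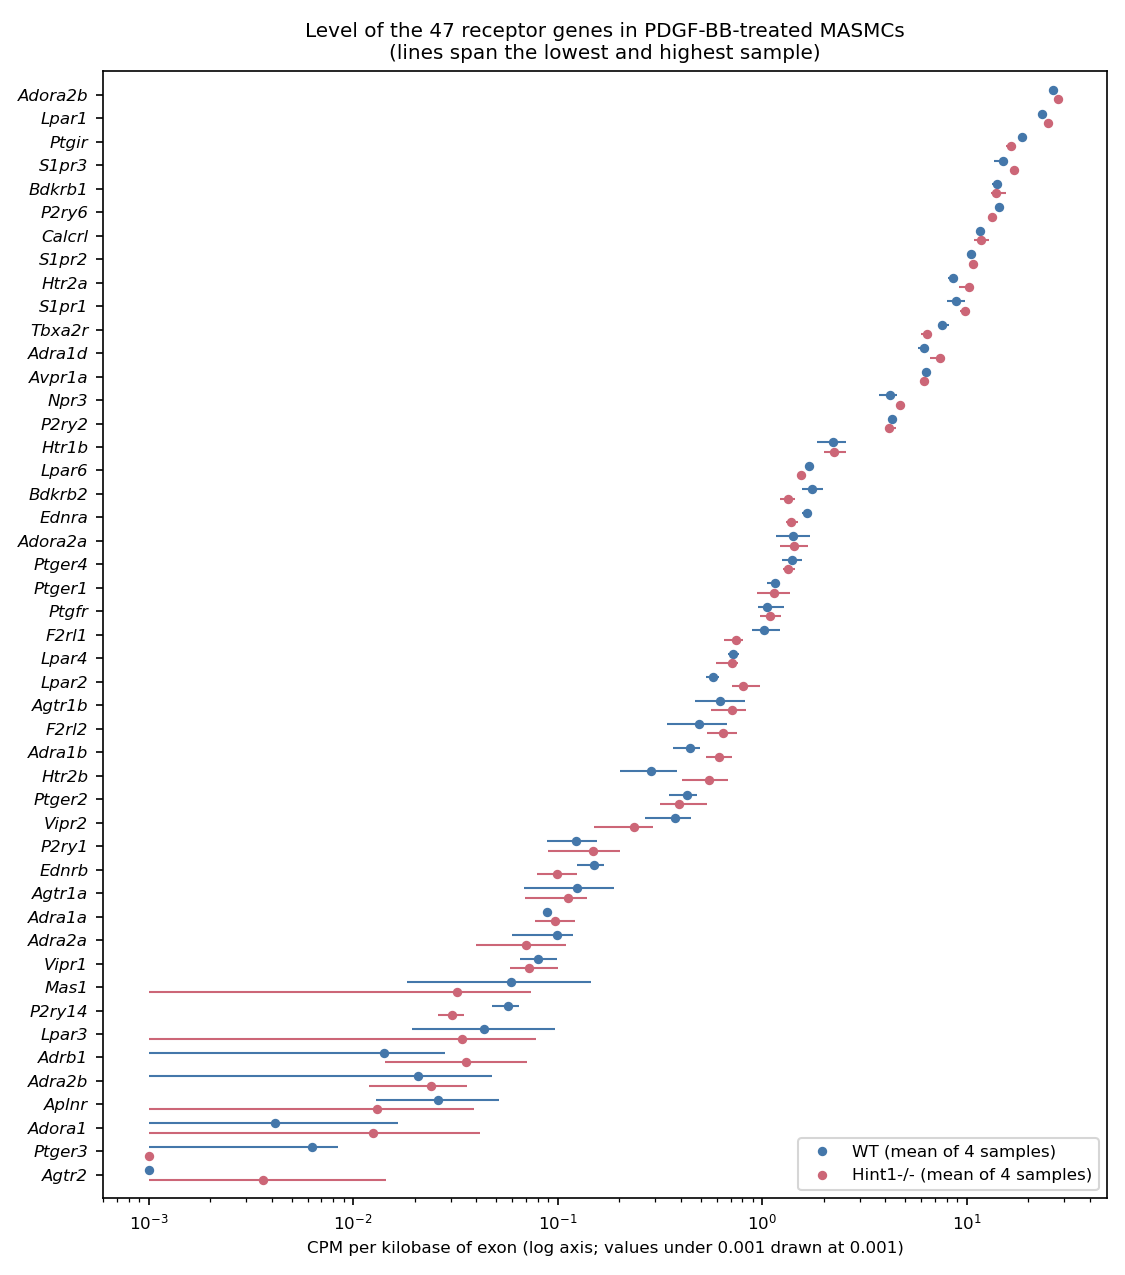
Level of each of the 47 receptor genes as CPM per kilobase of exon, on a log axis, in WT (blue) and Hint1-/- (red) MASMCs. Points are means of 4 samples, lines span the lowest and the highest sample, and values under 0.001 are drawn at 0.001; genes run from Adora2b, at 26.4 in WT, down to Agtr2, listed at 0 in all 4 WT samples.

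The remaining 10 genes did not pass the filter on low counts and were not tested. Agtr1a (4 to 11 counts per sample) and Vipr1 (7 to 12 counts) were detected in every sample. Mas1 ranged from 0 to 8 counts, Adrb1, Adora1, and Lpar3 from 0 to 5, and Adra2b and Aplnr from 0 to 4. Agtr2, the angiotensin type 2 receptor gene, had 0 counts in all WT samples, which allows a level of up to 0.143 to 0.144 CPM per library, and 1 count in Hint1-/- replicate 2. Ptger3, a prostaglandin E receptor gene, had 1 count in each of WT replicates 1, 2, and 4 and 0 counts in all Hint1-/- samples, which allows up to 0.144 to 0.145 CPM per library. These limits cover counting error only. Aplnr, the receptor gene for apelin, was therefore near the limit of detection in both genotypes.

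Next, the genotypes were compared with edgeR's quasi-likelihood test over 13535 genes. A gene whose p, adjusted by the Benjamini-Hochberg method, was under 0.05 and whose fold change was over 1.5 was called past both thresholds, and past the adjusted p alone without the limit on the fold change. Of the 37 tested receptor genes, 3 were past both thresholds. Htr2b was higher in Hint1-/- MASMCs, and Vipr2 and P2ry14 were lower, and all 3 had low counts, with a mean of 10.1 to 28.3 per sample. Over all tested genes, 1.34% were past both thresholds and higher and 1.49% were past both and lower. Past the adjusted p alone were 13 receptor genes, 6 of them higher and 7 lower, against 11.2% higher and 10.2% lower over all genes. Thus 35.1% of the receptors passed, against 21.5% of all tested genes. The receptors were chosen with earlier results of these data known, so these shares do not test for enrichment. The median log2 fold change of the 37 was 0.0072, close to the 0.00031 of all genes, and the median size of the change was 0.16 and 0.088.

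The 10 receptor genes past the adjusted p but not the limit on the fold were more abundant than the other 3, with mean counts of 50.3 to 1488. Their changes were small, with log2 fold changes from −0.45 to 0.49. WT and Hint1-/- samples were fully separated in 14 of the 37 genes, against 23.0% of all tested genes. These were 11 of the 13 genes past the adjusted p, all but Vipr2 and Npr3, together with Adra1b and Lpar1, whose Hint1-/- samples were all higher, and Lpar6, whose Hint1-/- samples were all lower. Of the 24 genes that did not pass the adjusted p, 17 had a 95% interval of the fold change that lay within 1.5-fold in either direction. The interval reached beyond 1.5-fold for Agtr1b, Ednrb, Adra1a, Adra1b, Adra2a, P2ry1, and F2rl2, so a change of that size was not excluded for these genes.

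**Figure D2:**
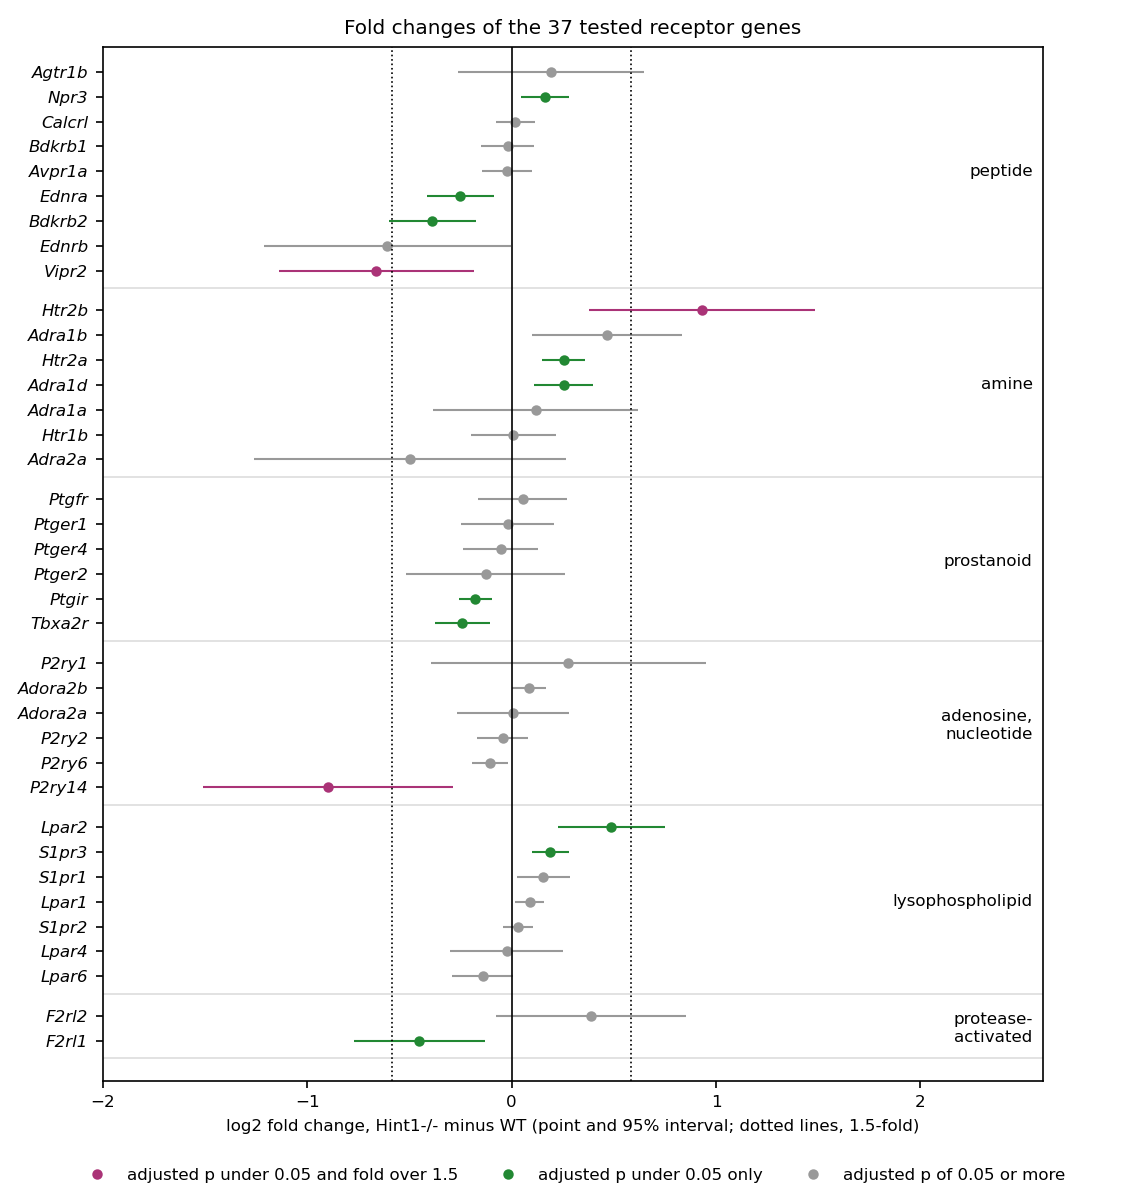
Log2 fold change (Hint1-/- minus WT) of the 37 tested receptor genes, grouped by ligand, with 95% intervals; dotted lines mark 1.5-fold in either direction. Purple points (Htr2b, Vipr2, and P2ry14) were past both thresholds. Green points were past the adjusted p but not the limit on the fold, and gray points were not past the adjusted p. The green points lie between −0.45 and 0.49.

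The promoter sequences of 3 of the changed receptors are given here. Each holds a match to the AP-1 search pattern upstream of an annotated start, and Lpar2 carries an E-box as well. The AP-1 pattern (TGANTCA), which allows any base at N, was used for sites of JUN and FOS proteins, and not every match need be such a site. The E-box (CACGTG) is bound by factors such as USF2 and MITF, the AP-2 motif (GCCNNNGGC) by TFAP2A, and the CRE (TGACGTCA) by CREB. RefSeq windows of 300 bases, from 250 before to 50 after each annotated start on GRCm38.p6, were searched on both strands and were found for 37 of the 47 genes, as 46 windows. AP-1 was present in 7 of the 46 windows, AP-2 in 12, the E-box in 4, and the CRE in 1, and over all 32851 windows the shares were 7.81%, 16.6%, 7.15%, and 1.79%. Of the 15 windows of 11 genes past the adjusted p, 4 held AP-1, and these belonged to Htr2b, Lpar2, and P2ry14, of which P2ry14 has several annotated starts. AP-2 was in 3 of the 15, those of Lpar2, Npr3, and S1pr3, the E-box in 1, that of Lpar2, and the CRE in 0. Only the windows with an AP-1 match are given below. The AP-2 match of Lpar2 does not lie wholly within the 250 bases given, and that of Npr3 began 131 bases before its start. Each sequence is the 250 bases before the start on the gene's own strand, with AP-1 and E-box motifs in capitals.
Htr2b, chr1:86111981-86112230, minus strand: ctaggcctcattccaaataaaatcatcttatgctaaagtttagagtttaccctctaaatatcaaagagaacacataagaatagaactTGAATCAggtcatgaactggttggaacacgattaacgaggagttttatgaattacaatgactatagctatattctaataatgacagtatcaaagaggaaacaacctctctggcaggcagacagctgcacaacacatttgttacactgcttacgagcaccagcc
Lpar2, chr8:69822315-69822564, plus strand: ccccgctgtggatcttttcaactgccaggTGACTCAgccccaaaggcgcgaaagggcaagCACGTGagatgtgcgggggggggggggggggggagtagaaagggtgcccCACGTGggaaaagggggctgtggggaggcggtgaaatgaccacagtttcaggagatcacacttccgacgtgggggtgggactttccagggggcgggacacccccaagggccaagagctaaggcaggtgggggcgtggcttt
P2ry14, chr3:59131329-59131578, minus strand: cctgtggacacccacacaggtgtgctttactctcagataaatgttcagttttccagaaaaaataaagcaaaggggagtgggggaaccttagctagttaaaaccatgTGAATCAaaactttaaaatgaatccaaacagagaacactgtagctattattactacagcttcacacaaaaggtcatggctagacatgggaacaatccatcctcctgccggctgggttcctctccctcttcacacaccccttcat
P2ry14, chr3:59153493-59153742, minus strand: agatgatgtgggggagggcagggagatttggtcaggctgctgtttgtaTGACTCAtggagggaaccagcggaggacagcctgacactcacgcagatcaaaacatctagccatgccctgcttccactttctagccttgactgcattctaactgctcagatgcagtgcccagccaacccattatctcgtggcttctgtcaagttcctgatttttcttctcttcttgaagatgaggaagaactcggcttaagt
The AP-1 match began 163 bases before the start in Htr2b, 221 in Lpar2, and 144 and 202 in the P2ry14 windows. It read TGAATCA in Htr2b and at 144 in P2ry14, and TGACTCA in Lpar2 and at 202 in P2ry14. The E-boxes of Lpar2 began 190 and 141 bases before the start. Htr2b and Lpar2 were higher in Hint1-/- MASMCs whereas P2ry14 was lower. Such a match is only a run of letters, and binding was not measured here.

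Among the receptors of vasoactive peptides, 9 of 14 were tested, of which 1 was higher and 3 were lower past the adjusted p. This was 44.4%, against 21.5% of all tested genes (11.2% higher and 10.2% lower). Bdkrb2 (chr12:105563226-105595237), the constitutive bradykinin receptor gene, had 131, 125, 158, and 143 counts in WT replicates 1, 2, 3, and 4 and 96, 108, 104, and 114 in Hint1-/- replicates 1, 2, 3, and 4. Every Hint1-/- sample was below every WT sample, and the log2 fold change was −0.39 ± 0.10 (SE, n = 4 per genotype, edgeR adjusted p = 0.0093). Its inducible relative Bdkrb1 had 401 to 442 counts in WT and 390 to 462 in Hint1-/- MASMCs, at a log2 fold change of −0.02 and an interval from −0.15 to 0.11. Ednra (chr8:77663031-77724464), the endothelin receptor gene through which smooth muscle contracts, had 198, 182, 197, and 179 counts in WT and 169, 152, 161, and 148 in Hint1-/- samples. These samples did not overlap either, at a log2 fold change of −0.25 ± 0.078 (edgeR adjusted p = 0.0272). Ednrb had few counts, 11 to 15 in WT and 7 to 11 in Hint1-/- samples, and a log2 fold change of −0.61 that did not pass (edgeR adjusted p = 0.151).

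Vipr2 (chr12:116077726-116146261), a receptor gene for vasoactive intestinal peptide that couples to Gs, had 35, 37, 25, and 42 counts in WT replicates 1, 2, 3, and 4 and 26, 27, 14, and 20 in Hint1-/- replicates 1, 2, 3, and 4. Its level fell to 63.2% of WT, at a log2 fold change of −0.66 ± 0.23 (edgeR adjusted p = 0.0452), although WT replicate 3 lay within the Hint1-/- range. Npr3 (chr15:11839896-11907287), which removes natriuretic peptides from the medium, rose by a small amount. Its counts were 897, 873, 799, and 729 in WT and 884, 895, 977, and 910 in Hint1-/- samples, with overlap, at a log2 fold change of 0.16 ± 0.055 (edgeR adjusted p = 0.0415), and the gene shares 2.41% of its 50-base stretches with Gm5144 on the other strand. Calcrl (1153 to 1224 and 1096 to 1298 counts) and Avpr1a (342 to 358 and 327 to 362 counts) did not pass, at log2 fold changes of 0.02 and −0.02, and neither did Agtr1b, with 21 to 37 and 25 to 37 counts. Adjusted p for Ednra rose to 0.0772, 0.0814, 0.0701, and 0.0849 without WT replicates 1 and 3 and Hint1-/- replicates 2 and 4, and for Vipr2 to 0.0843, 0.0859, 0.129, 0.137, and 0.109 without WT replicates 1, 2, and 4 and Hint1-/- replicates 3 and 4. For Npr3 it rose to 0.114, 0.142, 0.0625, 0.128, and 0.0725 without WT replicates 3 and 4 and Hint1-/- replicates 2, 3, and 4, and to 0.0599 with upper-quartile factors. In DESeq2 all 3 calls were lost, at adjusted p of 0.0909 for Ednra, 0.0780 for Vipr2, and 0.0547 for Npr3, whereas Bdkrb2 passed in every alternative.

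Of the amine receptors, 7 of 9 were tested, and 3 were higher past the adjusted p. This was 42.9%, against 21.5% of all tested genes (11.2% higher and 10.2% lower). With 7 genes, whether the family shared a direction was not tested. In edgeR 0 were lower, also at an unadjusted p under 0.05 and in DESeq2 and limma-voom. Htr2a (chr14:74640840-74709494), the main contractile serotonin receptor gene of smooth muscle, had 967, 1037, 944, and 1058 counts in WT replicates 1, 2, 3, and 4 and 1060, 1217, 1222, and 1243 in Hint1-/- replicates 1, 2, 3, and 4. The lowest Hint1-/- sample was just above the highest WT sample, at a log2 fold change of 0.25 ± 0.050 (edgeR adjusted p = 0.0011). Htr2b (chr1:86099026-86111970), a second Gq-coupled serotonin receptor gene, had 9, 14, 17, and 11 counts in WT and 20, 29, 18, and 30 in Hint1-/- samples. This was 0.610 ± 0.166 CPM against 1.17 ± 0.297 CPM (SD, n = 4), a log2 fold change of 0.93 ± 0.26 (edgeR adjusted p = 0.0161). Without WT replicate 1 and Hint1-/- replicates 2 and 4 its adjusted p was 0.0577, 0.0582, and 0.0643. Part of the Htr2b transcript is uncertain, because 252 of its 2131 exon bases lie antisense to Psmd1, a proteasome subunit gene, whose 4753 to 5049 counts per sample had a log2 fold change of 0.05 (edgeR adjusted p = 0.222). The strandedness of the libraries is not given in the sources used here.

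Adra1d (chr2:131545850-131562283) was the α1-adrenergic receptor gene with the highest level in these samples. It had 251, 248, 258, and 229 counts in WT and 300, 261, 297, and 309 in Hint1-/- samples, with no overlap. Its log2 fold change was 0.25 ± 0.069 (edgeR adjusted p = 0.0118), and it passed in every alternative, as did Htr2a. It shares 5.35% of its 50-base stretches with Gm14285 on the other strand. The samples of Adra1b, another α1-adrenergic receptor gene, did not overlap (26 to 35 counts in WT and 37 to 50 in Hint1-/- samples), but its log2 fold change of 0.47 did not pass (edgeR adjusted p = 0.0645). Adra1a (14 to 22 counts), Adra2a (4 to 12 counts), and Htr1b (184 to 254 counts) overlapped between genotypes. Htr1b shares 17.1% of its 50-base stretches with an antisense gene, D430036J16Rik, which makes its count uncertain.

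The prostanoid receptors were represented by 6 tested genes of 7, and 2 were lower past the adjusted p. This was 33.3%, against 21.5% of all tested genes (11.2% higher and 10.2% lower). With 6 genes, whether the family shared a direction was not tested. In edgeR 0 were higher, also at an unadjusted p under 0.05 and in DESeq2 and limma-voom. Ptgir (chr7:16906490-16910905), the Gs-coupled prostacyclin receptor gene that relaxes vessels, had 1274, 1360, 1287, and 1247 counts in WT and 1074, 1163, 1149, and 1151 in Hint1-/- replicates 1, 2, 3, and 4. Tbxa2r (chr10:81328731-81335172), the Gq-coupled thromboxane receptor gene that constricts them, had 289, 298, 327, and 295 counts in WT and 238, 254, 259, and 264 in Hint1-/- samples. For both genes every Hint1-/- sample was below every WT sample. Ptgir fell to 88.5% of WT (log2 fold change −0.18 ± 0.039, edgeR adjusted p = 0.0027) and Tbxa2r to 84.6% (−0.24 ± 0.064, edgeR adjusted p = 0.0110), and both passed in every alternative. The prostaglandin E receptor genes Ptger1, Ptger2, and Ptger4 and the prostaglandin F receptor gene Ptgfr had log2 fold changes between −0.13 and 0.05 and did not pass. Their intervals lay within 1.5-fold. The 106 to 155 counts of Ptger1 cannot be assigned to it with certainty.

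Of the adenosine and nucleotide receptors, 6 of 7 were tested and only P2ry14 passed the adjusted p. This was 16.7%, against 21.5% of all tested genes. P2ry14 (chr3:59113855-59153618), a Gi-coupled receptor gene for UDP-sugars, had 11, 15, 13, and 14 counts in WT replicates 1, 2, 3, and 4 and 8, 7, 7, and 6 in Hint1-/- replicates 1, 2, 3, and 4. All Hint1-/- samples were lower, and the level fell from 0.634 ± 0.0803 to 0.337 ± 0.0396 CPM (SD, n = 4), a log2 fold change of −0.90 ± 0.29 (edgeR adjusted p = 0.0343). Its call was lost when any sample other than WT replicate 1 was left out, at adjusted p of 0.0790, 0.0680, and 0.0773 without WT replicates 2, 3, and 4 and 0.0539, 0.0706, 0.0668, and 0.0943 without Hint1-/- replicates 1, 2, 3, and 4, and it was also lost with no filter on low counts (0.0750) and in DESeq2 (0.152). The abundant receptors of this family moved little. Adora2b had a log2 fold change of 0.08 with an interval from −0.00016 to 0.17, and P2ry6, which is activated by UDP, had one of −0.11 with an interval from −0.19 to −0.02 (edgeR adjusted p = 0.153 and 0.0883). P2ry2, a receptor gene for ATP and UTP, and Adora2a were at −0.04 and 0.01, and P2ry1 had 8 to 18 counts with overlap.

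Among the lysophospholipid receptors, 7 of 8 were tested, and S1pr3 and Lpar2 were higher past the adjusted p. This was 28.6%, against 21.5% of all tested genes (11.2% higher and 10.2% lower). With 7 genes, whether the family shared a direction was not tested. In edgeR 0 were lower, also at an unadjusted p under 0.05 and in DESeq2 and limma-voom. S1pr3 (chr13:51408639-51422797), which couples to several G proteins, had 1448, 1463, 1413, and 1262 counts in WT and 1588, 1565, 1537, and 1626 in Hint1-/- replicates 1, 2, 3, and 4, at a log2 fold change of 0.19 ± 0.043 (edgeR adjusted p = 0.0037). Lpar2 (chr8:69822429-69831102), a lysophosphatidic acid receptor gene, had 74, 65, 66, and 75 counts in WT and 97, 86, 118, and 89 in Hint1-/- samples, reaching 140% of WT at a log2 fold change of 0.49 ± 0.13 (edgeR adjusted p = 0.0086). Neither gene's samples overlapped between genotypes, and both passed in every alternative. Lpar1, the most abundant receptor gene for the same ligand, had 2118, 2144, 2111, and 2023 counts in WT and 2194, 2141, 2246, and 2278 in Hint1-/- samples. In CPM its genotypes did not overlap, but the log2 fold change was 0.09 and did not pass (edgeR adjusted p = 0.0696). S1pr1, at 0.16, passed without WT replicate 1 (0.21, edgeR adjusted p = 0.0193) but not in all 8 samples (edgeR adjusted p = 0.0823). S1pr2, the second most abundant by count with 1667 to 1807 in WT and 1747 to 1774 in Hint1-/- samples, was at 0.03, and Lpar4 and Lpar6 were at −0.02 and −0.14.

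Both protease-activated receptors were tested. F2rl1 (chr13:95511732-95525227), which trypsin-like proteases cleave and activate, had 58, 54, 51, and 70 counts in WT and 37, 44, 42, and 46 in Hint1-/- replicates 1, 2, 3, and 4. Every Hint1-/- sample was lower, at a log2 fold change of −0.45 ± 0.15 (edgeR adjusted p = 0.0423). The adjusted p rose to 0.0774 and 0.148 without WT replicates 1 and 4 and to 0.116, 0.0679, 0.0777, and 0.0565 without Hint1-/- replicates 1, 2, 3, and 4, and it was 0.103 in DESeq2. F2rl2 had 18 to 35 counts in WT and 28 to 39 in Hint1-/- samples, at a log2 fold change of 0.39 that did not pass (edgeR adjusted p = 0.234). F2r, the thrombin receptor gene, which is outside the 47 genes and was named after its value was seen, had 2105 to 2303 and 2017 to 2113 counts and a log2 fold change of −0.07 (edgeR adjusted p = 0.209).

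**Figure D3:**
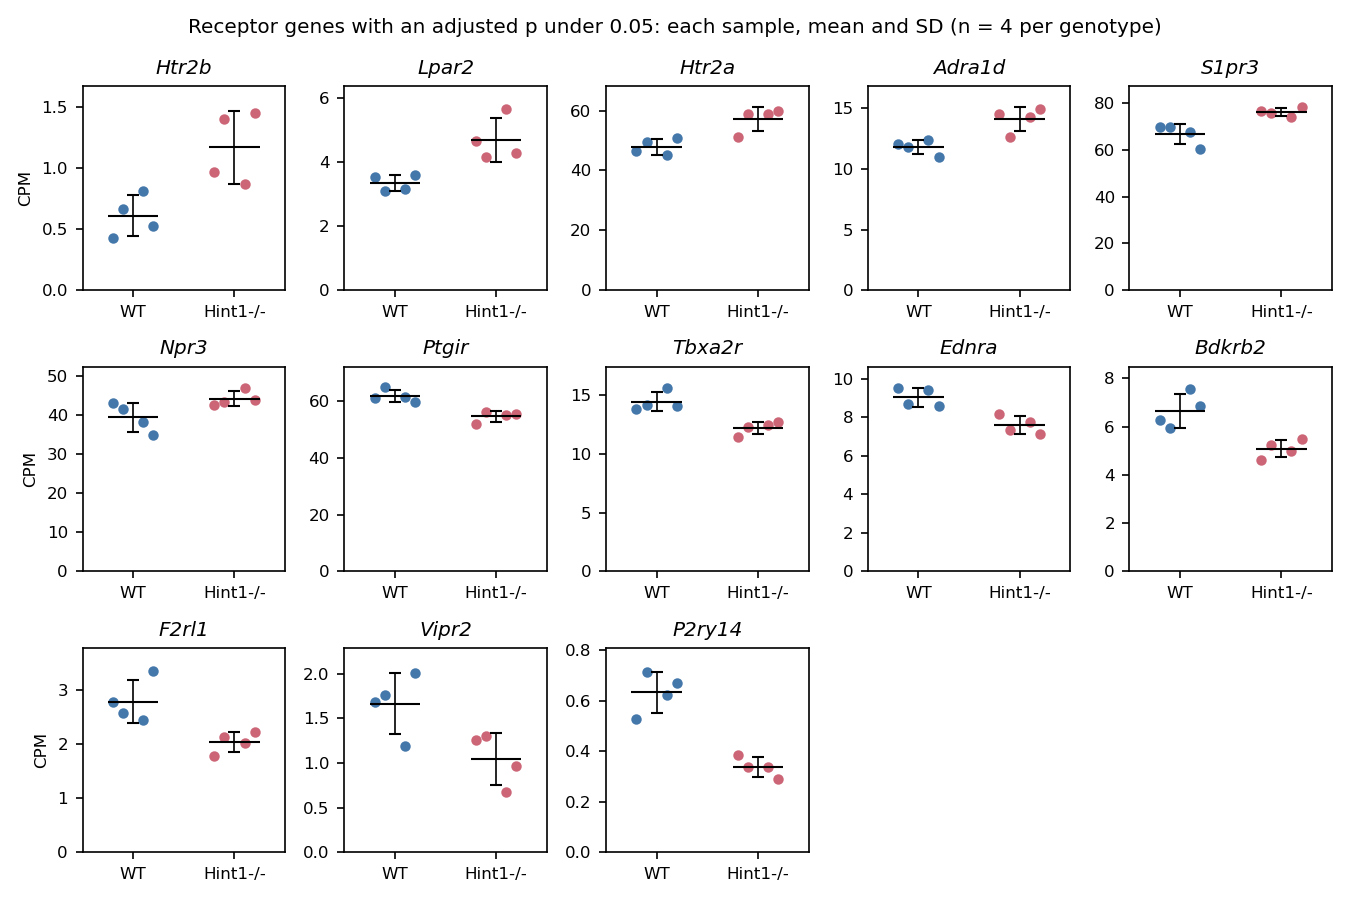
CPM of the 13 receptor genes past the adjusted p in each WT (blue) and Hint1-/- (red) sample, with the mean and SD (n = 4 per genotype), on axes from 0. The 6 higher genes come first and the 7 lower genes after them; samples overlap between genotypes for Npr3 and Vipr2 alone, and in Htr2a the lowest Hint1-/- sample, replicate 1 at 1060 counts, lies close to the WT samples.

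To place the receptors in their pathways, lists of 191 genes for related receptors, G proteins, regulators, effectors, ligands, and ligand enzymes were examined in the same comparison. Of these, 178 were in the files and 128 were tested, and 9 were higher and 4 lower past both thresholds, with 26 higher and 20 lower past the adjusted p. These were 10.2% and 35.9% of the tested partner genes, against 2.83% and 21.5% of all tested genes. All lists were chosen with earlier results of these data known, so the shares given here and below do not test for enrichment. Ligands and their enzymes had 18 of 37 tested genes higher and 2 lower past the adjusted p. Over all tested genes 11.2% were higher and 10.2% lower. The median log2 fold change of this list was 0.16, against 0.00031 for all genes. Apln, the ligand of the nearly undetected Aplnr, had 895, 815, 950, and 908 counts in WT replicates 1, 2, 3, and 4 and 1790, 1930, 1718, and 2007 in Hint1-/- replicates 1, 2, 3, and 4, a log2 fold change of 1.07 ± 0.052 (edgeR adjusted p = 3.02e-11). Hpgd, the enzyme that inactivates prostaglandins, rose from 26, 9, 15, and 11 counts in WT to 84, 78, 81, and 56 in Hint1-/- samples (log2 fold change 2.29 ± 0.24, edgeR adjusted p = 9.46e-07). Adm2, a ligand of Calcrl, rose from 45 to 70 counts in WT to 81 to 112 in Hint1-/- samples, at a log2 fold change of 0.72. Kng1 and Kng2, which encode the precursor of bradykinin, rose by log2 0.79 and 0.68, and their counts are uncertain because they share 17.2% and 19.4% of their 50-base stretches.

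Kng1 and Kng2 were higher where Bdkrb2 was lower and Bdkrb1 was at −0.02, and Adm2 was higher where Calcrl was at 0.02. These are only some of the pairs of ligand and receptor genes in the lists. Whether ligand and receptor genes changed in the same or in opposite directions was not tested. Adm, the adrenomedullin gene and another Calcrl ligand, named after its value was seen, had 5542 to 6120 counts in WT and 8462 to 9014 in Hint1-/- MASMCs, and its log2 fold change of 0.58 (edgeR adjusted p = 9.80e-10) was just under the limit on the fold. Of the RAMP genes, named after their values were seen, whose proteins set the ligand choice of Calcrl, Ramp2 had 39 to 66 counts and did not pass (log2 fold change −0.20, edgeR adjusted p = 0.461), and Ramp1 and Ramp3 had 3 to 9 and 1 to 4 counts and were not tested. Mrap, an accessory protein of the corticotropin receptor, was the 1 gene of 6 tested receptor partners past both thresholds (16.7%, against 2.83% of all tested genes). It had 22 to 32 counts in WT and 49 to 62 in Hint1-/- samples (log2 fold change 1.14).

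Of 24 tested G protein subunit genes, 1 was higher and 2 were lower past the adjusted p. This was 12.5%, against 21.5% of all tested genes. The 21 that did not pass included Gnas and Gnaq, the α subunits of Gs and Gq, at log2 fold changes of 0.03 and 0.01. Gnas and Gnaq were named after their values were seen. Gnao1, an α subunit of the Gi family, rose from 91, 97, 105, and 105 counts in WT to 158, 150, 146, and 160 in Hint1-/- samples (log2 fold change 0.64). Gnal, an α subunit related to Gnas, was lower at −0.85 but overlapped between genotypes (31 to 41 and 12 to 32 counts) and lost its call without Hint1-/- replicate 1 or 4, at edgeR adjusted p of 0.0715 and 0.0762.

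Regulators of signaling that shorten the active state of G proteins were tested with receptor kinases and arrestins, and 2 of 23 were higher and 7 lower past the adjusted p, that is, 39.1% against 21.5% of all tested genes. Rgs8 fell from 151, 164, 156, and 142 counts in WT to 23, 16, 17, and 21 in Hint1-/- replicates 1, 2, 3, and 4, that is, to 12.7% of WT (log2 fold change −2.97 ± 0.14, edgeR adjusted p = 1.50e-11). Rgs11 rose from 104, 102, 104, and 128 counts in WT to 159, 184, 184, and 186 in Hint1-/- samples, at 0.71 ± 0.096 (edgeR adjusted p = 2.18e-05).

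Of 26 tested effector genes, 4 were higher and 6 lower past the adjusted p, against 11.2% and 10.2% of all tested genes. Trpc6, a calcium-permeable channel opened downstream of Gq, fell from 100, 73, 95, and 81 counts in WT to 29, 34, 39, and 34 in Hint1-/- samples, to 39.4% of WT (log2 fold change −1.35 ± 0.15, edgeR adjusted p = 2.86e-06). Adcy8, a calcium-stimulated adenylyl cyclase, was higher at 0.70 with overlapping samples (19 to 27 and 25 to 44 counts), and its adjusted p was 0.0617, 0.0569, 0.0683, and 0.0909 without WT replicates 2 and 4 and Hint1-/- replicates 1 and 4. Adora3, an adenosine receptor gene outside the 47, was the only 1 of 12 tested unlisted receptors past both thresholds, at 128 to 152 counts in WT and 76 to 94 in Hint1-/- samples (log2 fold change −0.70), and it shares 19.8% of its 50-base stretches with Tmigd3. In this list 3 genes were lower past the adjusted p of edgeR and 0 higher, with 1 higher at an unadjusted p under 0.05 and 0 in DESeq2 or limma-voom. The share past both thresholds was 8.33% in this list and 2.83% over all tested genes, and past the adjusted p 25.0% and 21.5%.

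**Figure D4:**
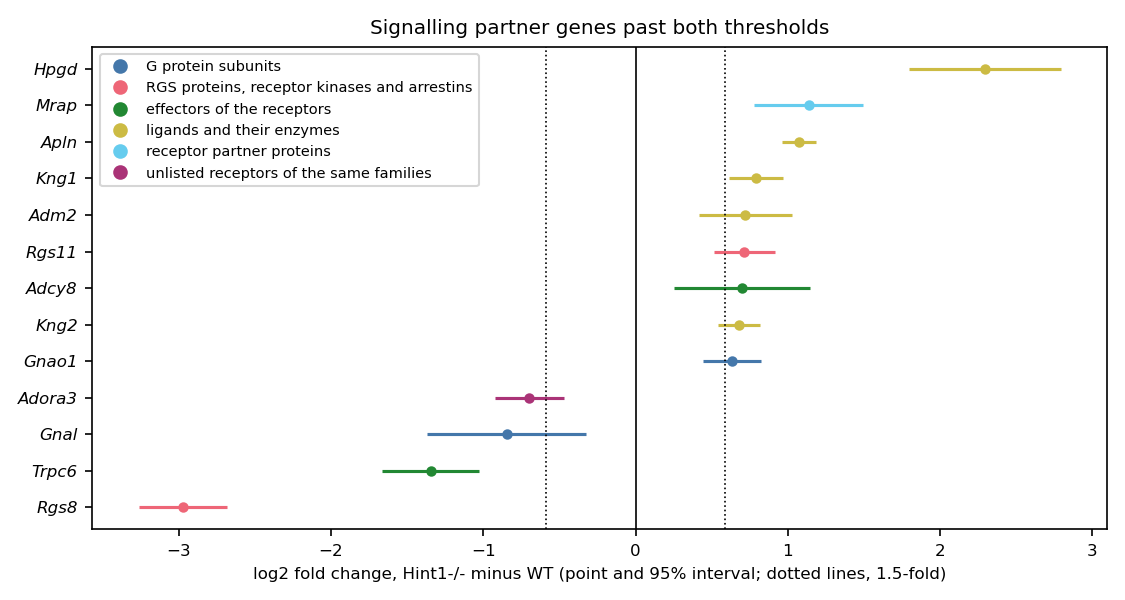
Log2 fold change (Hint1-/- minus WT) and 95% interval of the 13 signaling partner genes past both thresholds, colored by list; dotted lines mark 1.5-fold in either direction. Hpgd is the highest at 2.29 and Rgs8 the lowest at −2.97, and 5 of the 9 higher genes are ligands or ligand enzymes.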

How the data were processed

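RNA-Seq of 4 WT and 4 Hint1-/- MASMC samples was examined. The authors deposited estimated counts per gene symbol, without normalization. The submitters' processing notes name Bowtie2, RSEM 1.3.1, and DESeq2 1.4.5, whereas the study's methods describe HISAT2 mapping to mm10. The gene annotation and the strandedness are not given in the sources used here. Estimated counts were rounded to whole numbers. Each library held 20778077 to 20888041 counts.

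Genes were filtered with filterByExpr, scaled by TMM, and tested with edgeR 4.0.16 (glmQLFit and glmQLFTest, two-sided, genotype only) in R 4.3.3, with Benjamini-Hochberg adjustment over 13535 genes. CPM used TMM-scaled library sizes. SEs and 95% intervals came from the quasi-likelihood fit. The code was tested on simulated data. Exon lengths, positions, and the share of 50-base stretches, the read length, found in another gene came from GENCODE M21, and promoter windows from RefSeq. No protein table was used here.

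The members and all lists were chosen with earlier results of these data known. Sample values are given for receptors past the adjusted p and for receptors high per length, and partner genes past both thresholds are named. The study's methods give the fold and p thresholds. Lists were described by counts and medians, with no set test.

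Alternatives were DESeq2's size factors (RLE) or upper-quartile factors in edgeR, no filter, at least 10 counts in every sample, DESeq2 1.42.0, limma-voom (limma 3.58.1), a block for replicate number, leaving out each sample, and glmTreat against 1.5-fold. No 2 samples agreed within sampling noise, with a chi-square per gene of 2.07 to 5.25 within genotypes.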

Additional observations from a re-analysis of the deposited data

Results flagged for a closer look

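Among 52 groups of 4 samples, 2 for each of the 13 receptors past the adjusted p and the 13 partner genes past both thresholds, 3 held a sample whose gap to the nearest other sample, as a share of the group's range of log2 CPM, exceeded Dixon's 95% value of 0.829, where chance gives about 1 in 20, or 2.6. Htr2a in Hint1-/- replicate 1 had 1060 counts against 1217 to 1243 in the other Hint1-/- samples, a share of 0.881. Rgs11 in WT replicate 4 had 128 counts against 102 to 104, a share of 0.888, and Rgs11 in Hint1-/- replicate 1 had 159 counts against 184 to 186, a share of 0.919. Htr2a and Rgs11 passed the adjusted p in every alternative, also without these samples.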

How the results depend on the processing

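Of the 13 receptors past the adjusted p, Bdkrb2, Adra1d, Htr2a, Ptgir, Tbxa2r, S1pr3, and Lpar2 passed in every alternative run gene by gene (glmTreat was run for the counts past both thresholds only), and in 193 combinations of gene and alternative 155 kept the call, 38 lost it, and 0 reversed. The count past both thresholds, 3 in all samples, was 1 with at least 10 counts in every sample, which removed Htr2b and P2ry14 from the test, 1 in DESeq2, and 0 with glmTreat, where Htr2b had an unadjusted p under 0.05. It ranged from 0 to 2 when 1 sample was left out, with 0 without Hint1-/- replicate 4, where Htr2b, Vipr2, and P2ry14 passed the fold and an unadjusted p under 0.05, and 1 without WT replicates 1, 2, and 4 and Hint1-/- replicates 2 and 3. The count past the adjusted p, 13, was 8 in DESeq2 and 7 to 11 with 1 sample left out, the lowest being 8 without Hint1-/- replicate 2 and 7 without Hint1-/- replicate 4. The count of partner genes past both thresholds, 13, was 4 with glmTreat and 11 to 14 with 1 sample left out. Unless stated, the cause was not tested. Same-numbered WT and Hint1-/- samples did not deviate together (correlations −0.045, 0.081, 0.0088, and 0.023), so the numbers were not taken as pairs. With the replicate block, 2 receptors were past both thresholds and 12 past the adjusted p, since P2ry14 lost its call (adjusted p = 0.0535), and 13 partner genes were past both thresholds. Depth limits the receptors with few counts, whose intervals are wide.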

Other observations

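The receptors were also grouped by the G protein each is best known to use, a grouping made after the values were seen. Of 16 tested receptors of the Gq group, 3 were higher (Adra1d, Htr2a, and Htr2b) and 3 lower (Ednra, Bdkrb2, and Tbxa2r) past the adjusted p, with a median log2 fold change of 0.02. Of 7 tested in the Gs group, 2 were lower (Ptgir and Vipr2), with a median of −0.05. Of 4 tested in the Gi group, P2ry14 was lower, with a median of −0.24. Of 10 tested in the remaining group, 3 were higher (S1pr3, Lpar2, and Npr3) and 1 was lower (F2rl1), with a median of 0.06. This group held the receptors with several or other couplings, and also Npr3, which is not a G protein–coupled receptor. The shares past the adjusted p were 37.5%, 28.6%, 25.0%, and 40.0%, against 21.5% of all tested genes, and whether the groups differ was not tested.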
